A study of Homo sapiens with 8 samples.

Results

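The mitochondrial ribosomal proteins are the nuclear-encoded proteins of the ribosome that works inside mitochondria, and their transcripts were followed through GPX1 depletion in a pair of human breast cancer cell lines. Members were taken by name, as every gene symbol made of MRPL or MRPS, a number and at most one letter from A to C. This gave 76 of the 23686 listed genes, of which 47 are named for the large subunit (MRPL) and 29 for the small subunit (MRPS). RNA sequencing covered 8 libraries, 2 in each of 4 groups. The groups were MDA-MB-231 cells with GPX1 depleted by siRNA (siGpx1), control MDA-MB-231 cells, siGpx1 HS578T cells and control HS578T cells. Both are established lines of triple-negative breast cancer, a class defined by the lack of oestrogen, progesterone and HER2 receptors. GPX1 is a selenium-containing enzyme that uses glutathione to break down hydrogen peroxide, and the study's title ties it to metastasis of this cancer. The sample titles name an siRNA while the genotype tag reads Gpx1-/-, and the titles were followed. What the controls received, how many siRNAs were used and when cells were collected were not given in the sources used here. Nothing says that the 2 libraries of a group came from separate cultures, so a p-value speaks only to the spread of these libraries, part of which may be technical.

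A mitochondrial ribosome joins a large subunit, which forms peptide bonds, to a small subunit, which reads the messenger RNA. Its RNAs are encoded in mitochondrial DNA, while its proteins are encoded in the nucleus, made in the cytosol and imported. It makes only the few core subunits of the respiratory chain and ATP synthase that mitochondrial DNA encodes. Some members have a counterpart in the bacterial ribosome and others are found only in mitochondria. The names follow early protein lists rather than structures: by structure MRPS30 and MRPS18A lie in the large subunit, and MRPS36 is a subunit of the oxoglutarate dehydrogenase complex.

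The libraries held 12905808 to 14216365 expected counts, and 15573 to 15805 genes had at least 1 count. All 76 members passed the filter on low counts, and no member had fewer than 104 counts in any library. GPX1 had 108 and 95 counts in siGpx1 MDA-MB-231 libraries, against 2944 and 3223 in their controls. In HS578T it had 42 and 42 counts after siGpx1, against 1117 and 1074 in the controls, so each library matched its label. The labels call the cells of both lines epithelial, and this was checked against markers. EPCAM, an epithelial adhesion molecule, had 39.2 and 39.5 TPM after siGpx1 and 31.8 and 32.7 TPM in the controls in MDA-MB-231, but at most 0.22 TPM in any HS578T library. CDH1, the epithelial cadherin, reached at most 1.11 TPM in either line. The epithelial keratin KRT18 was at 321 TPM or more in all 8 libraries. KRT8 was at 670.4 TPM or more in MDA-MB-231 and at most 35.4 TPM in HS578T, and KRT19 at 440.2 TPM or more in MDA-MB-231 and at most 0.51 TPM in HS578T. KRT18 was higher in each siGpx1 library than in the controls of its line, with 898 and 1001 TPM after siGpx1 and 322 and 321 TPM in the controls in HS578T. Of the mesenchymal markers, the filament VIM was at 2134 TPM or more in all 8 libraries, while the cadherin CDH2 was at most 1.22 TPM in MDA-MB-231 and 280.0 TPM or more in HS578T. FN1 was at most 271 TPM in MDA-MB-231 and 10720 TPM or more in HS578T, and ZEB1 had 35.0 to 48.1 TPM. VIM, FN1 and CDH2 were also higher in each siGpx1 library than in the controls of its line, as was KRT8, while ZEB1 was lower. The markers were thus mixed in both lines, and their part in the results was not tested. The oestrogen receptor ESR1 reached at most 0.09 TPM and the progesterone receptor PGR at most 1.02 TPM, while the receptor ERBB2 had 30.9 to 45.0 TPM. Of the leukocyte markers, CD3E was listed at 0 in every library and PTPRC reached at most 0.19 TPM, while CD14 had 6.23 to 13.0 TPM. CD14 was also higher in each siGpx1 library than in the controls of its line. Of the endothelial markers, PECAM1 had 1.37 to 5.34 TPM, while CDH5 and VWF reached at most 0.04 and 0.06 TPM.

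Every member was expressed in both lines, and the levels spanned about an order of magnitude. Levels are in TPM (transcript abundance scaled to a fixed total), which divides by transcript length and so allows genes to be set side by side. The highest mean over the 8 libraries belonged to MRPL51, at 229.6 TPM, followed by MRPL33 (225 TPM), MRPL20 (219 TPM), MRPL37 (212 TPM) and MRPS24 (205 TPM). MRPL51 had 283 ± 10.6 TPM in siGpx1 MDA-MB-231, 248 ± 15.5 TPM in control MDA-MB-231, 204 ± 18.7 TPM in siGpx1 HS578T and 184 ± 5.90 TPM in control HS578T cells (SD, n = 2 each). MRPL33, which has a bacterial counterpart, had 261 ± 7.41 TPM in siGpx1 MDA-MB-231, 320.2 ± 4.23 TPM in control MDA-MB-231, 129.9 ± 1.63 TPM in siGpx1 HS578T and 188 ± 3.92 TPM in control HS578T cells. The 5 lowest were MRPL30 (30.4 TPM), MRPL19 (30.03 TPM), MRPS14 (29.4 TPM), MRPL22 (26.2 TPM) and MRPS25 (25.4 TPM). MRPS25 had 25.7 ± 1.21 TPM in siGpx1 MDA-MB-231, 26.5 ± 2.57 TPM in control MDA-MB-231, 24.5 ± 0.940 TPM in siGpx1 HS578T and 24.9 ± 0.233 TPM in control HS578T cells, and it passed the test in none of the comparisons. The order within the top 5 and within the bottom 5 differed from group to group, and no test was run between neighbours. The members together summed to 8326 and 8308 TPM in the siGpx1 MDA-MB-231 libraries, against 8412 and 8571 TPM in the controls. In HS578T the sum was 6801 and 7333 TPM after siGpx1, against 6886 and 7029 TPM in the controls. The siGpx1 sums lay below both control sums in MDA-MB-231 and on either side of them in HS578T. With 2 libraries a group, no two-sided exact permutation test of such a sum can fall below p = 0.33, and none is given.

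**Figure D1:**
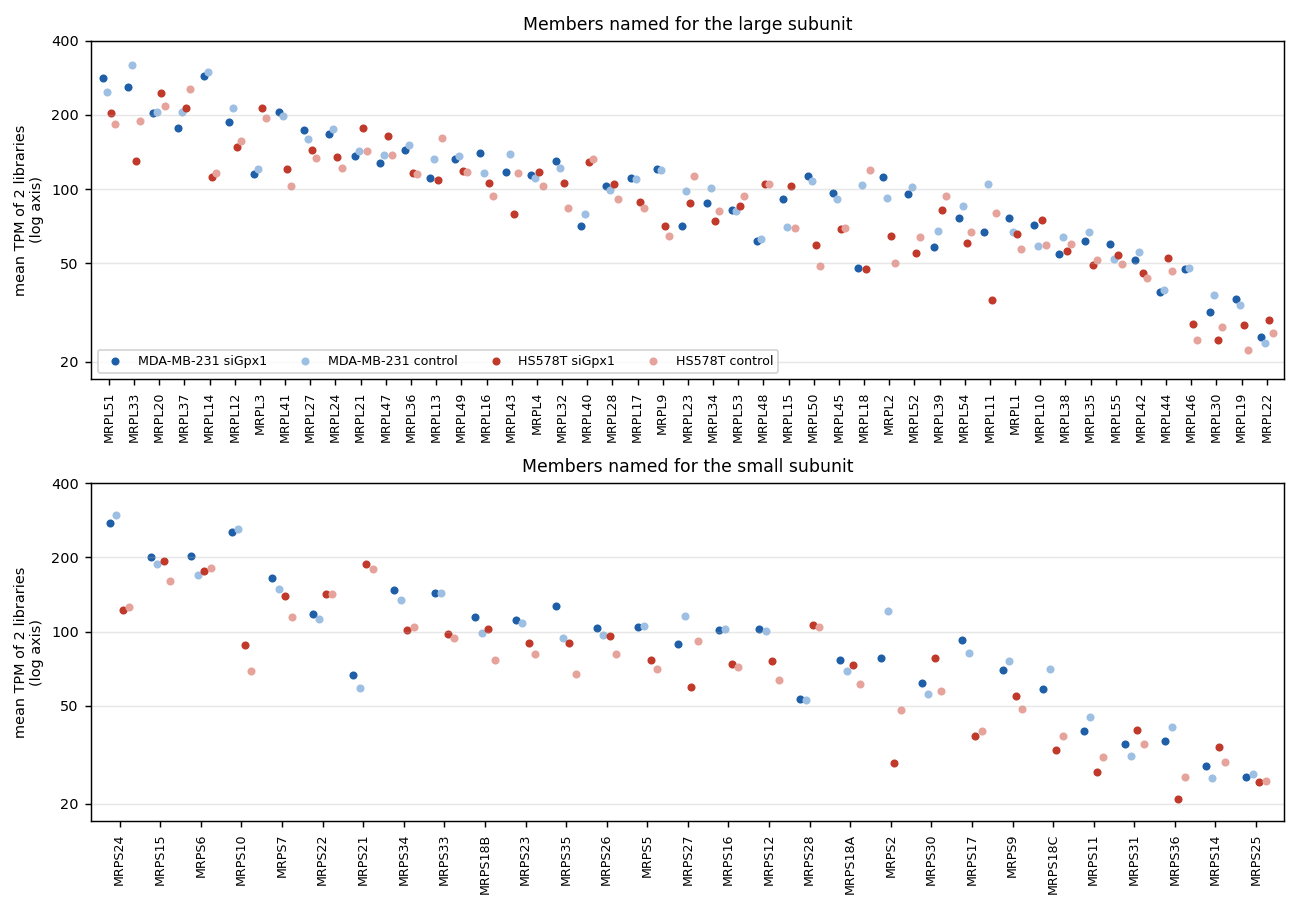
Mean TPM of 2 libraries (log axis) for each of the 76 mitochondrial ribosomal protein genes, the 47 large-subunit members above and the 29 small-subunit members below, each ordered by its mean over 8 libraries. Colours give the 4 groups. MRPL51 and MRPS24 lead the 2 panels, and the low red points of MRPL18, MRPL11 and MRPS2 are the siGpx1 HS578T libraries.

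Promoters of ribosomal and mitochondrial genes often lack a TATA box and carry sites for ETS factors such as GABPA, for NRF1 and for YY1. RefSeq promoters on GRCh38.p14, from 250 bases before to 50 after the start, were found for 68 of the 76 members. On either strand, 28 of them (41.2%) held the ETS core CCGGAAG, against 10.7% of all 27305 promoters and 18.8% of those of tested genes. The YY1 core AAGATGG was in 23 (33.8%), against 6.06% of all promoters and 7.41% of those of tested genes. GCGCATG, the core of the NRF1 site, was in 7 (10.3%), against 4.67% of all promoters and 7.42% of those of tested genes. TATAAA was in 3 (4.41%), against 11.95% of all and 5.86% of those of tested genes. The ETS and YY1 cores can share the letters AAG. A match is a run of letters and not evidence of binding. Promoters are shown for MRPS10, the member with the largest difference between the lines, and for the members that fell most, MRPL18 and MRPL11. Capitals mark matches, which are an ETS then a YY1 core in MRPS10 and a YY1 core in MRPL11, and MRPL18 has none.
MRPS10, chr6:42217812-42218111, minus strand: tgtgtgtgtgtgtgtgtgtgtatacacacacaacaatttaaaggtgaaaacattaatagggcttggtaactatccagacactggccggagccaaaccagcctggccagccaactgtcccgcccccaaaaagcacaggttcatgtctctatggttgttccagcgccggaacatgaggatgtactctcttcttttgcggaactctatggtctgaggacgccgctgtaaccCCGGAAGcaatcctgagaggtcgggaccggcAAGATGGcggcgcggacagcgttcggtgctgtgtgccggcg
MRPL11, chr11:66438799-66439098, minus strand: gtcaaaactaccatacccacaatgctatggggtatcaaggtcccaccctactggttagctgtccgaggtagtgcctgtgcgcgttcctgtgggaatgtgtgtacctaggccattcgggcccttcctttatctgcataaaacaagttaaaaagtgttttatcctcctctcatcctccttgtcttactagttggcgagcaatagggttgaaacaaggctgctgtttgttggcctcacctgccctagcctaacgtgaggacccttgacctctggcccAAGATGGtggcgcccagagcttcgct
MRPL18, chr6:159789562-159789861, plus strand: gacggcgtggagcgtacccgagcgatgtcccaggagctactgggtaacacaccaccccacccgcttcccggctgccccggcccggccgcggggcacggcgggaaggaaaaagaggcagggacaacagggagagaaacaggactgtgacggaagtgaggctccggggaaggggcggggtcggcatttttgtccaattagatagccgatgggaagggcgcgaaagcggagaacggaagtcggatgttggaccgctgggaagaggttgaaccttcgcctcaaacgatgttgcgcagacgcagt

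In MDA-MB-231 cells most members did not pass the test after GPX1 depletion, and those that did moved both ways. By the quasi-likelihood test of edgeR, adjusted by Benjamini-Hochberg over all 14249 genes tested and called at an adjusted p under 0.05, 16 of 76 members (21.1%) fell, against 21.9% of all tested genes. The number that rose was 8 (10.5%), against 20.7% of all tested genes, and 52 did not pass. The median log2 change of the members was -0.01, against 0.00 over all tested genes. The share that fell was close to that of all genes, and the share that rose was lower. In the large subunit 12 members fell and 5 rose, and in the small subunit 4 fell and 3 rose. In bulk RNA, fewer cells that express a gene and less of its RNA per cell cannot be told apart. Over all tested genes, 19.3% fell and 24.1% rose with DESeq2 size factors. With a stricter filter these shares were 21.3% and 30.6%, and with DESeq2 13.6% and 17.2%. In every setting run, a smaller share of the members than of all tested genes rose. With DESeq2 size factors the split of the members was 14 lower and 11 higher. With a stricter filter the split was 13 lower and 14 higher, and with DESeq2 7 and 7. Without control replicate 2 it was 7 lower and 9 higher, without siGpx1 replicate 1 it was 8 and 8, and without siGpx1 replicate 2 it was 9 and 7, so which direction held more members differed between settings. In these 3 fits 9.21%, 10.5% and 11.8% of the members fell, against 14.3%, 14.0% and 14.2% of all tested genes.

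MRPL18, the counterpart of a bacterial protein that binds 5S ribosomal RNA, fell most. It had 51.8 and 44.1 TPM in the siGpx1 MDA-MB-231 libraries, against 106 and 102 TPM in the MDA-MB-231 controls, a 2.18-fold decrease, a log2 change of -1.12 ± 0.08 (SE, adjusted p = 2.99e-08). Both depleted libraries lay far below both controls. MRPL11, part of the stalk base where translation factors dock, had 68.1 and 65.8 TPM after siGpx1, against 106 and 104 TPM in the controls, a log2 change of -0.66 ± 0.06 (SE, adjusted p = 2.33e-07). MRPS2, a small-subunit protein with a bacterial counterpart, had 80.0 and 75.9 TPM after siGpx1, against 120.3 and 121 TPM in the controls, a log2 change of -0.64 ± 0.06 (SE, adjusted p = 3.92e-07). The groups of both genes were well apart. These were the 3 members with a log2 change of at least 0.5 in this line. Among the rises, the largest was that of MRPS35, a small-subunit protein with no bacterial counterpart. It had 125 and 127 TPM after siGpx1, against 93.6 and 94.5 TPM in the controls, a log2 change of 0.42 ± 0.06 (SE, adjusted p = 2.22e-05). MRPL15 had 98.1 and 84.9 TPM after siGpx1, against 69.9 and 70.1 TPM in the controls, a log2 change of 0.38 ± 0.07 (SE, adjusted p = 0.000549), with the 2 depleted libraries further apart than the controls but both above them. MRPL2, which lies beside the catalytic centre of the large subunit, had 115 and 109 TPM after siGpx1, against 88.1 and 95.7 TPM in the controls, a log2 change of 0.28 ± 0.07 (SE, adjusted p = 0.00254).

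In HS578T cells more members rose than fell in each setting that was run, with 32 of 76 members (42.1%) higher after siGpx1, against 28.6% of all tested genes by the same test. The number that fell was 9 (11.8%), against 22.1% of all tested genes, and 35 did not pass. The median log2 change was 0.13, against 0.04 over all tested genes. In the large subunit 19 members rose and 7 fell, and in the small subunit 13 rose and 2 fell. The rises were small: the largest was 1.54-fold, and of the 6 members with an absolute log2 change of at least 0.5, 5 fell. One depleted library moved with this result. Of the 76 members, 63 had a higher value in siGpx1 replicate 2 than in replicate 1, against 42.7% of all tested genes, and the members held 0.344% of counts in replicate 2 but 0.313% in replicate 1. The controls held 0.318 and 0.325%. Without siGpx1 replicate 2 the counts were 18 higher and 11 lower, so that 23.7% of the members rose, against 25.2% of all tested genes, and its part in the result was not tested beyond this. DESeq2 called 18 higher and 8 lower, a share that rose of 23.7%, against 20.1% of all tested genes. The line fitted alone gave 20 and 11, a share that rose of 26.3%, against 24.1% of all tested genes. In these 3 fits the share of members that rose was near that of all genes. Limma on TPM gave 25 and 16, a share that rose of 32.9%, against 23.6% of all tested genes.

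MRPL18 again fell most, with 44.2 and 51.1 TPM in the siGpx1 HS578T libraries, against 119 and 121 TPM in the HS578T controls, a 2.41-fold decrease, a log2 change of -1.27 ± 0.08 (SE, adjusted p = 4.42e-09). MRPL11 had 35.0 and 35.8 TPM after siGpx1, against 79.1 and 80.8 TPM in the controls, a log2 change of -1.13 ± 0.07 (SE, adjusted p = 1.65e-09). The depleted and control libraries of both genes were far apart. MRPS2 had 28.4 and 30.4 TPM after siGpx1, against 49.1 and 47.0 TPM in the controls, a log2 change of -0.64 ± 0.08 (SE, adjusted p = 5.58e-06). MRPS27, a pentatricopeptide repeat protein that binds mitochondrial RNA, had 58.2 and 61.1 TPM after siGpx1, against 93.1 and 89.6 TPM in the controls, a log2 change of -0.56 ± 0.05 (SE, adjusted p = 1.2e-07). MRPL13, which also has a bacterial counterpart, had 108 and 110.3 TPM after siGpx1, against 155 and 167 TPM in the controls, a log2 change of -0.50 ± 0.06 (SE, adjusted p = 5.77e-06). None of these 3 groups of libraries overlapped with its controls. MRPL15 was the only member to rise by at least 0.5, with 99.6 and 106 TPM after siGpx1, against 67.4 and 71.2 TPM in the controls, a log2 change of 0.62 ± 0.07 (SE, adjusted p = 3.16e-06). MRPS10 had 87.1 and 89.3 TPM after siGpx1, against 66.2 and 72.3 TPM in the controls, a log2 change of 0.40 ± 0.05 (SE, adjusted p = 1.1e-05). MRPL19, one of the least abundant members, had 29.1 and 27.4 TPM after siGpx1, against 23.1 and 21.4 TPM in the controls, a log2 change of 0.40 ± 0.05 (SE, adjusted p = 8.39e-06). The depleted libraries of all 3 genes lay above both controls.

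**Figure D2:**
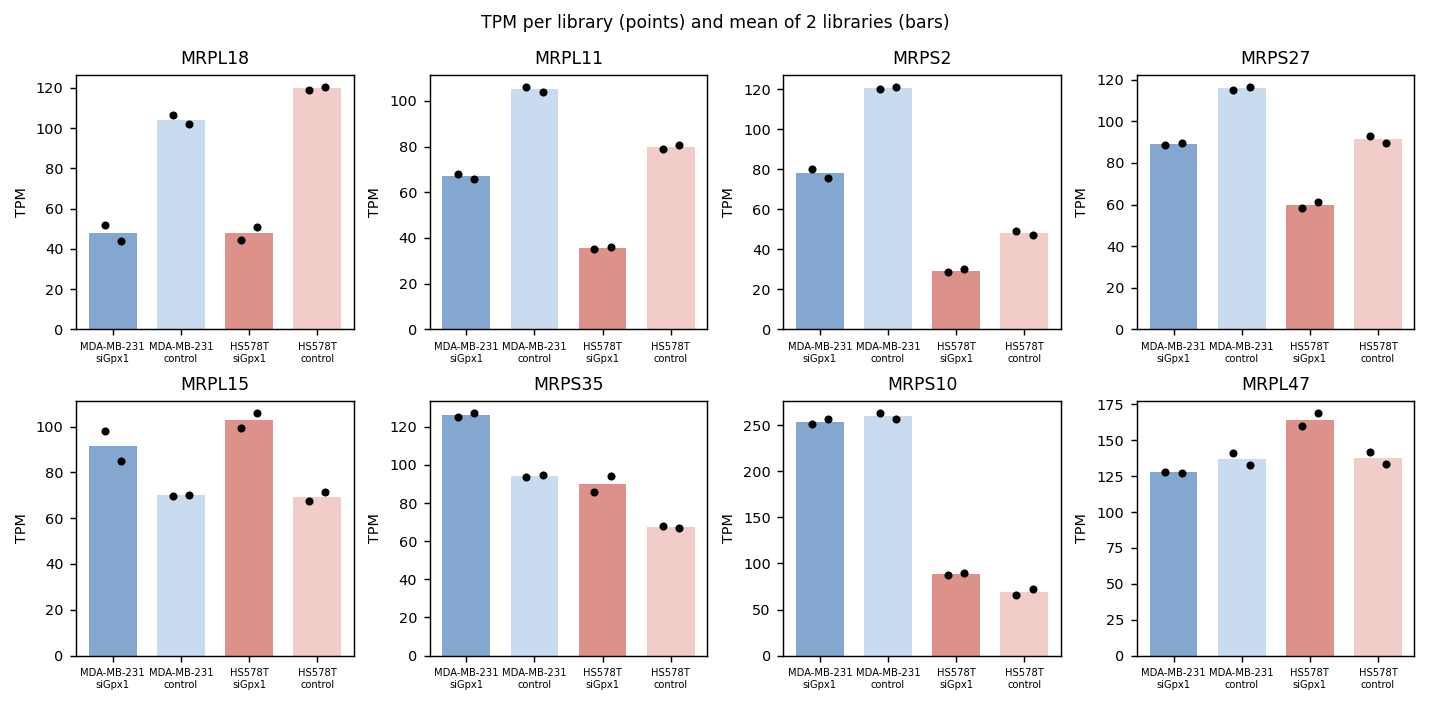
TPM in each of the 8 libraries (points) with the mean of 2 libraries (bars, from 0) for 8 mitochondrial ribosomal protein genes. MRPL18, MRPL11, MRPS2 and MRPS27 lie below their controls in both lines, MRPL15 and MRPS35 lie above, and MRPS10 and MRPL47 lie above the controls in HS578T but not in MDA-MB-231.

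Calls in the same direction in both lines were counted next. All 9 members that fell in HS578T were among the 16 that fell in MDA-MB-231, namely MRPL11, MRPL13, MRPL18, MRPL23, MRPL33, MRPL37, MRPL43, MRPS2 and MRPS27. Of the 8 that rose in MDA-MB-231, 7 were among the 32 that rose in HS578T, namely MRPL2, MRPL10, MRPL15, MRPL16, MRPL51, MRPS18B and MRPS35. As a share of the members, 11.8% fell in both lines and 9.21% rose in both, against 14.3% and 14.9% of all tested genes, so both shares were below the background. The other 7 members that fell in MDA-MB-231 did not pass in HS578T. No member passed in opposite directions, which is also rare among all tested genes. Of these, 0.842% rose in HS578T and fell in MDA-MB-231, and 0.702% did the reverse. In neither line did 27 members (35.5%) pass, against 37.5% of all tested genes. Across members the log2 changes in MDA-MB-231 and in HS578T had Pearson's r = 0.87 and Spearman's rho = 0.74 (n = 76). Over all 14249 tested genes r was 0.43 and rho 0.59. These describe genes, which are not independent replicates, and the lines share no library.

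Among the shared falls, MRPL23 sits at the exit of the peptide tunnel. It had 74.7 and 66.6 TPM after siGpx1, against 93.7 and 103 TPM in the controls in MDA-MB-231, a log2 change of -0.48 ± 0.10 (adjusted p = 0.000984) and 79.1 and 96.4 TPM after siGpx1, against 109.8 and 116 TPM in the controls in HS578T, a log2 change of -0.30 ± 0.09 (adjusted p = 0.0139). MRPL33 had log2 changes of -0.29 ± 0.06 (adjusted p = 0.0009) in MDA-MB-231 and -0.42 ± 0.07 (adjusted p = 0.000133) in HS578T. MRPL37, found in mitochondria and not in bacterial ribosomes, fell by 0.22 in MDA-MB-231 and by 0.21 in HS578T on the log2 scale. MRPL43 changed by -0.28 ± 0.07 (adjusted p = 0.00323) in MDA-MB-231 and -0.50 ± 0.07 (adjusted p = 3.01e-05) in HS578T. MRPL13 changed by -0.27 ± 0.06 (adjusted p = 0.00271) in MDA-MB-231, and MRPS27 by -0.39 ± 0.05 (adjusted p = 4.36e-06). The drop was larger in HS578T than in MDA-MB-231 for MRPL13, MRPL33, MRPL43 and MRPS27 and smaller for MRPL23, but none of these differences passed the test between lines (adjusted p from 0.083 to 0.437). Several of these calls were lost with another method or when 1 library was left out. With DESeq2 the adjusted p was 0.0508 for MRPL33 and 0.0589 for MRPL43 in MDA-MB-231, and 0.0513 for MRPL23 in HS578T. In MDA-MB-231 the adjusted p of MRPL13 was 0.0617 without MDA-MB-231 control replicate 1 and 0.0831 without MDA-MB-231 siGpx1 replicate 2. That of MRPL37 was 0.136 without MDA-MB-231 control replicate 2 and 0.0881 without MDA-MB-231 siGpx1 replicate 1, and that of MRPL43 was 0.106 without MDA-MB-231 control replicate 2 and 0.0718 without MDA-MB-231 siGpx1 replicate 2. In HS578T that of MRPL23 was 0.0983 without HS578T control replicate 2 and 0.199 without HS578T siGpx1 replicate 1. MRPL18, MRPL11, MRPS2 and MRPS27 passed in both lines whichever library was left out.

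Among the shared rises, MRPL10 is the stalk protein that carries copies of MRPL12. It had log2 changes of 0.28 ± 0.07 (adjusted p = 0.00351) in MDA-MB-231 and 0.40 ± 0.07 (adjusted p = 0.000185) in HS578T. Its neighbour in the stalk base, MRPL11, fell in both lines, so these partners moved in opposite directions. MRPL12 itself, which contacts the translation factors, changed by -0.19 ± 0.07 (adjusted p = 0.0405) in MDA-MB-231 and -0.02 ± 0.08 (adjusted p = 0.844) in HS578T, and its MDA-MB-231 call was lost without any one of the MDA-MB-231 libraries or without HS578T control replicate 1 (adjusted p from 0.0534 to 0.49). MRPL2 and MRPS35 changed by 0.41 ± 0.08 (adjusted p = 0.000417) and 0.47 ± 0.06 (adjusted p = 1.12e-05) in HS578T. MRPL16, which helps to place transfer RNA, changed by 0.26 ± 0.06 (adjusted p = 0.00269) in MDA-MB-231 and 0.23 ± 0.07 (adjusted p = 0.00869) in HS578T, and in HS578T its adjusted p was 0.0831 without HS578T control replicate 1 and 0.09 without HS578T siGpx1 replicate 2. MRPL51, the most abundant member, changed by 0.19 ± 0.07 (adjusted p = 0.0413) in MDA-MB-231 and 0.20 ± 0.08 (adjusted p = 0.0339) in HS578T. Its HS578T call was lost with any library left out other than siGpx1 replicate 1 (adjusted p up to 0.387), and its MDA-MB-231 call had an adjusted p of 0.131 without MDA-MB-231 control replicate 2 and 0.107 without MDA-MB-231 siGpx1 replicate 2.

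MRPS18A, MRPS18B and MRPS18C are the 3 paralogues of a single bacterial small-subunit protein. MRPS18B had log2 changes of 0.21 ± 0.07 (adjusted p = 0.0201) in MDA-MB-231 and 0.47 ± 0.07 (adjusted p = 6.27e-05) in HS578T, where it had 99.8 and 105 TPM after siGpx1, against 72.9 and 81.0 TPM in the controls. MRPS18A changed by 0.14 ± 0.06 (adjusted p = 0.0914) in MDA-MB-231 and 0.32 ± 0.07 (adjusted p = 0.000758) in HS578T, and the difference between the lines did not pass (-0.18, adjusted p = 0.204). MRPS18C had 56.5 and 60.6 TPM after siGpx1, against 69.3 and 72.0 TPM in the controls in MDA-MB-231, a log2 change of -0.28 ± 0.07 (adjusted p = 0.00592) and changed by -0.14 ± 0.09 (adjusted p = 0.27) in HS578T. In MDA-MB-231 the adjusted p of MRPS18B was 0.0944 without MDA-MB-231 control replicate 1 and 0.0635 without MDA-MB-231 siGpx1 replicate 2, and that of MRPS18C was 0.124 without MDA-MB-231 control replicate 2 and 0.167 without MDA-MB-231 siGpx1 replicate 1. Differences between the paralogues were not tested. The members that moved least, by the sum of both lines' absolute log2 changes, were MRPL14, MRPL48 and MRPL53 in the large subunit and MRPS25, MRPS28 and MRPS33 in the small subunit. MRPS25 changed by -0.05 ± 0.07 (adjusted p = 0.619) in MDA-MB-231 and 0.03 ± 0.07 (adjusted p = 0.758) in HS578T, and MRPL14 by -0.07 ± 0.07 (adjusted p = 0.473) in MDA-MB-231 and 0.00 ± 0.09 (adjusted p = 1) in HS578T.

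**Figure D3:**
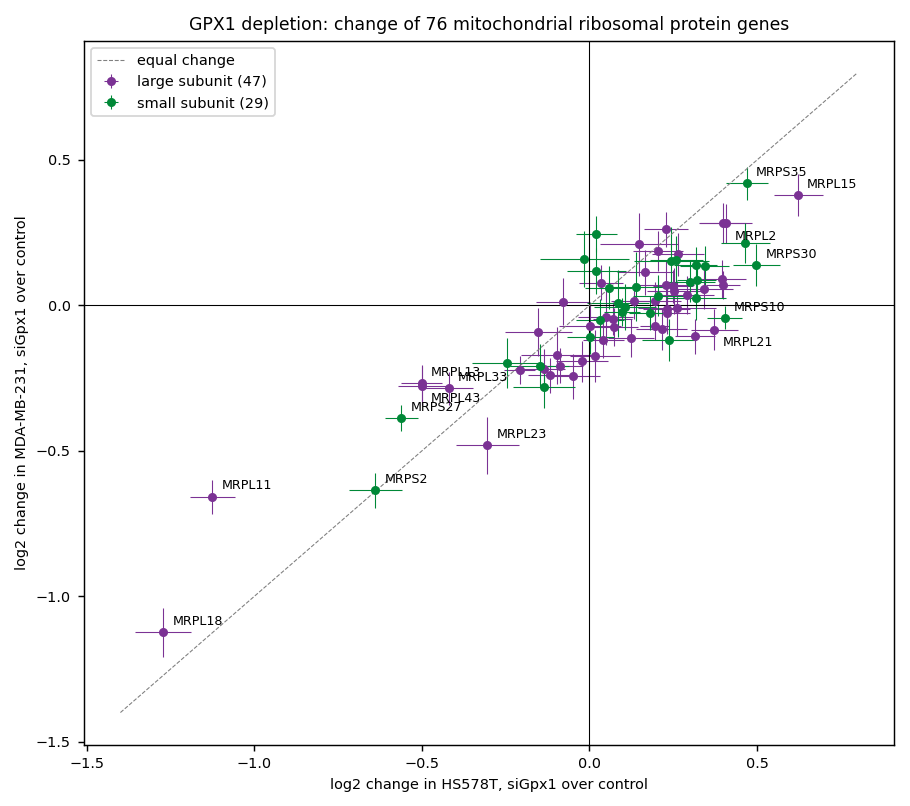
Log2 change after siGpx1 of each of the 76 members in HS578T (x axis) and in MDA-MB-231 (y axis), with standard errors as bars, large-subunit members in purple and small-subunit members in green. The dashed line marks equal change. MRPL18 and MRPL11 lie far to the left of the rest, MRPL18 alone also lies far below, and most rises lie below the dashed line.

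Whether siGpx1 acted differently in the lines was tested with an interaction term, the log2 change in MDA-MB-231 minus that in HS578T. For 8 of 76 members (10.5%) this difference was negative and passed, against 10.7% of all tested genes, and for 1 (1.32%) it was positive, against 6.32% of all tested genes. The median difference was -0.12 over the members, against -0.06 over all tested genes. MRPS10, a small-subunit protein with a bacterial counterpart, did not pass in MDA-MB-231, with 251 and 256 TPM after siGpx1, against 263 and 257 TPM in the controls, and its difference was -0.45 ± 0.07 (SE, adjusted p = 0.000301). MRPL11 fell less in MDA-MB-231 than in HS578T, with a difference of 0.47 ± 0.09 (SE, adjusted p = 0.00221). These calls held under each alternative that was run. MRPL47 had 128 and 127 TPM in the siGpx1 MDA-MB-231 libraries, against 141 and 133 TPM in the MDA-MB-231 controls, and 159.8 and 169 TPM in the siGpx1 HS578T libraries, against 142 and 133 TPM in the HS578T controls, a difference of -0.42 ± 0.09 (SE, adjusted p = 0.00305). MRPL19 had 35.5 and 36.0 TPM after siGpx1, against 33.8 and 34.0 TPM in the controls in MDA-MB-231, a difference of -0.33 ± 0.07 (SE, adjusted p = 0.00418). Both were above their controls after siGpx1 in HS578T, while in MDA-MB-231 MRPL47 was not.

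The other members with a difference between lines were MRPL21, MRPL3, MRPS30, MRPS9 and MRPL32. MRPL21 changed by -0.08 ± 0.07 (adjusted p = 0.388) in MDA-MB-231 and 0.37 ± 0.07 (adjusted p = 0.000362) in HS578T, a difference of -0.45 ± 0.10 (SE, adjusted p = 0.00562). MRPL3, which reaches the catalytic centre, changed by -0.07 ± 0.05 (adjusted p = 0.253) in MDA-MB-231 and 0.20 ± 0.04 (adjusted p = 0.00133) in HS578T, a difference of -0.27 ± 0.06 (SE, adjusted p = 0.00977). MRPS30 changed by 0.14 ± 0.07 (adjusted p = 0.137) in MDA-MB-231 and 0.50 ± 0.07 (adjusted p = 2.12e-05) in HS578T, a difference of -0.36 ± 0.10 (SE, adjusted p = 0.0216). All 8 negative differences thus belonged to members that rose in HS578T and did not pass in MDA-MB-231. The HS578T call of MRPS9 itself was lost without HS578T control replicate 2, without HS578T siGpx1 replicate 2 or without any one MDA-MB-231 library (adjusted p up to 0.227). The set is not firm, because the members that passed changed with the library left out. Without HS578T siGpx1 replicate 1 the median difference was -0.154 over the members, against -0.038 over all tested genes. Without HS578T control replicate 1 it was -0.106, against -0.044. Without MDA-MB-231 control replicate 1 it was -0.060, against 0.040, and without control replicate 2 -0.009, against 0.046. Without MDA-MB-231 siGpx1 replicate 1 it was -0.022, against 0.035, and without siGpx1 replicate 2 -0.038, against 0.040. The share with a negative call fell without any single MDA-MB-231 library, both among the members and among all tested genes. With DESeq2 size factors there were 5 negative and 4 positive calls, and with limma on TPM 5 and 6. The negative calls were 6.58% of the members in both settings, against 7.02% and 6.98% of all tested genes. The positive calls were 5.26% and 7.89% of the members, against 8.78% and 8.03% of all tested genes. Differences for MRPS9 and MRPL32 were -0.36 ± 0.11 (adjusted p = 0.0325) and -0.31 ± 0.10 (adjusted p = 0.0407).

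Without depletion the lines differed in most members, as they did in most of all tested genes. Between control MDA-MB-231 and control HS578T libraries, 40 of 76 members (52.6%) were higher in MDA-MB-231, against 43.0% of all tested genes, and 20 (26.3%) were lower, against 38.6% of all tested genes. The median log2 difference was 0.19 for the members and 0.05 for all tested genes. In the large subunit 22 were higher and 13 lower, and in the small subunit 18 were higher and 7 lower. This comparison shares its control libraries with both depletion comparisons. With limma on TPM the split was 49 higher and 12 lower, on a scale whose median over all tested genes was 0.17. These were 64.5% and 15.8% of the members, against 48.6% and 33.6% of all tested genes. The SD of the members' log2 differences was 0.55, against 2.66 over all tested genes, whose values ran from -16.6 to 16.0. The quartiles differed less, at -0.16 and 0.41 for the members and -0.68 and 0.67 for all tested genes.

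MRPS10 differed most, with 263 and 257 TPM in MDA-MB-231 controls, against 66.2 and 72.3 TPM in HS578T controls, 3.42-fold higher, a log2 difference of 1.77 ± 0.05 (SE, adjusted p = 9.55e-15). MRPL14, the counterpart of a protein at the subunit interface, had 282 and 318 TPM in MDA-MB-231 controls, against 117 and 116 TPM in HS578T controls, a log2 difference of 1.22 ± 0.08 (SE, adjusted p = 1.1e-09). MRPS2 had 120.3 and 121 TPM in MDA-MB-231 controls, against 49.1 and 47.0 TPM in HS578T controls, a log2 difference of 1.196 ± 0.06 (SE, adjusted p = 6.12e-11). The 4 control libraries of these genes separated fully by line. MRPS24 and MRPL50 were higher by 1.08 and 1.01 on the log2 scale, and MRPS17, MRPL46, MRPL41, MRPS18C and MRPL9 by 0.75 to 0.90. In the other direction, MRPS21 had 54.5 and 64.0 TPM in MDA-MB-231 controls, against 169.6 and 189 TPM in HS578T controls, 3.33-fold lower, a log2 difference of -1.73 ± 0.10 (SE, adjusted p = 1.17e-10). MRPS21 has 8 named pseudogenes in GENCODE 29, more than any other member, so its count is uncertain. MRPS28 had 54.4 and 51.0 TPM in MDA-MB-231 controls, against 93.7 and 114 TPM in HS578T controls, a log2 difference of -1.12 ± 0.10 (SE, adjusted p = 4.66e-08), and MRPL3 had 122 and 120.1 TPM in MDA-MB-231 controls, against 192 and 196 TPM in HS578T controls, a log2 difference of -0.82 ± 0.05 (SE, adjusted p = 9.67e-11). MRPL48, MRPL40 and MRPL39 had log2 differences of -0.88, -0.88 and -0.61. Across members, log2(TPM + 1) in the control lines had Pearson's r = 0.78 and rho = 0.76 (n = 76), a description across genes.

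**Figure D4:**
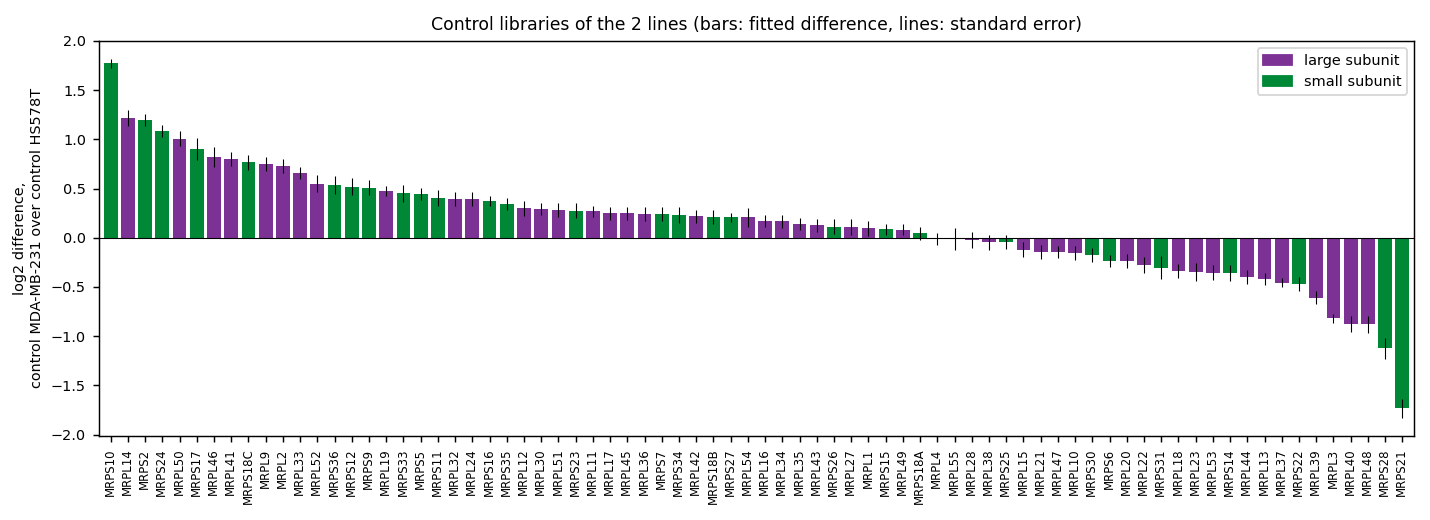
Fitted log2 difference of control MDA-MB-231 over control HS578T libraries for each of the 76 members, ordered by size, with standard errors as lines, large-subunit members in purple and small-subunit members in green. Small-subunit members hold both ends, MRPS10 at 1.77 and MRPS21 at -1.73.

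The large and small subunits were set against each other as mean TPM per member. In MDA-MB-231 the large subunit averaged 112 and 111 TPM per member after siGpx1 and 115 and 117 TPM in the controls, while the small subunit averaged 105 and 107 TPM after siGpx1 and 104 and 105 TPM in the controls. In HS578T the large subunit averaged 93.9 and 102 TPM after siGpx1 and 97.9 and 99.6 TPM in the controls, and the small subunit 82.3 and 88.3 TPM after siGpx1 and 78.8 and 81.0 TPM in the controls. The log2 ratio of large to small was 0.089 and 0.048 after siGpx1 in MDA-MB-231, against 0.144 and 0.158 in the controls. In HS578T it was 0.191 and 0.202 after siGpx1, against 0.313 and 0.297 in the controls. This ratio of means was lower in every depleted library than in the controls of its line, and higher in each HS578T library than in any MDA-MB-231 library. It is an average in which abundant members weigh most. With medians in place of means, the siGpx1 and control libraries of MDA-MB-231 overlapped (0.102 and -0.055 after siGpx1, 0.132 and 0.053 in the controls). The lines overlapped too, with 0.098 in HS578T siGpx1 replicate 1. The median log2 change of the large subunit was -0.05 and that of the small subunit 0.03 in MDA-MB-231, and 0.13 and 0.14 in HS578T. Counting MRPS30 and MRPS18A as large and leaving out MRPS36, the mean ratio was -0.03 after siGpx1 and 0.05 in the controls in MDA-MB-231, and 0.13 and 0.22 in HS578T.

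**Figure D5:**
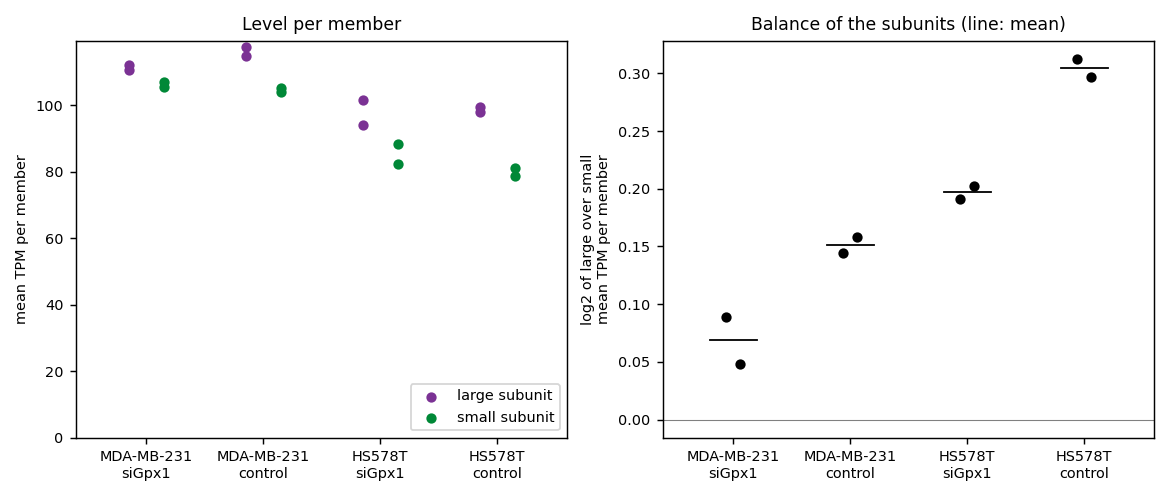
Left, mean TPM per member of the 47 large-subunit (purple) and 29 small-subunit (green) members in each of the 8 libraries. Right, the log2 ratio of these means per library, with a line at the mean of 2 libraries; the siGpx1 libraries of each line lie below its controls.

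Members were also split by descent, a split made after their values were seen. Of the 47 with a bacterial counterpart, 6 rose and 11 fell in MDA-MB-231 and 24 rose and 6 fell in HS578T. Of the 29 without one, 2 rose and 5 fell in MDA-MB-231 and 8 rose and 3 fell in HS578T. The median log2 changes of those with and without a counterpart were -0.01 and -0.01 in MDA-MB-231 and 0.19 and 0.06 in HS578T, and the difference was not tested. Of the 44 members with an NRF1, ETS or YY1 match in the promoter, 3 rose and 7 fell in MDA-MB-231 and 18 rose and 4 fell in HS578T. Of the 24 with none, 2 rose and 7 fell in MDA-MB-231 and 10 rose and 3 fell in HS578T. Over all tested genes 20.7% rose and 21.9% fell in MDA-MB-231, and 28.6% rose and 22.1% fell in HS578T.

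In these same libraries the 7-base sequences GGGCATC and GGCATCA in 3′ UTRs had been associated with lower expression after siGpx1, and the members were searched for them in GENCODE 29 transcripts. The sequences were thus chosen on these data, and their presence is not independent evidence. Of 75 members with a 3′ UTR, 4 (5.33%) held a match, against 14.3% of tested genes. Member UTRs were short, with a median of 389 bases, against 1242 bases over tested genes. The matches are shown with 10 bases on each side and capitals on the match.
MRPL11: gctgtatcgaGGCATCAggcctgaata
MRPL42: tttggggtagGGGCATCtatgaaattc
MRPL50, first: tacctctagaGGGCATCActggtttata
MRPL50, second: taccactagaGGGCATCActggtttata
MRPS33: ataaacataaGGCATCAtatatttaaa
MRPL50 carries the joined 8 bases in a pair of near-identical places, and changed by 0.05 ± 0.07 (adjusted p = 0.557) in MDA-MB-231 and 0.34 ± 0.09 (adjusted p = 0.0037) in HS578T. Of the 4, MRPL11 fell in both lines, while MRPL42 and MRPS33 passed in neither. MRPL18, which fell most, has no match in its transcript. A further 11 members held a match only upstream of the 3′ UTR. Of these, MRPS2 and MRPL23 fell in both lines, MRPL16 rose in both, and the others did not pass in both.

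Other genes of mitochondrial translation were counted in the same fits with values given as log2 changes. Beside the counts of each list stand the shares over all tested genes. These were 20.7% higher and 21.9% lower in MDA-MB-231, and 28.6% higher and 22.1% lower in HS578T. The lists are short, and no set test was run. Of 7 mitoribosomal proteins outside the naming rule, 1 rose and 2 fell in MDA-MB-231 and 4 rose and none fell in HS578T. PTCD3, a pentatricopeptide repeat protein of the small subunit, passed in opposite directions, at -0.15 ± 0.05 (adjusted p = 0.0256) in MDA-MB-231 and 0.30 ± 0.06 (adjusted p = 0.000654) in HS578T. GADD45GIP1, a large-subunit protein, changed by 0.15 ± 0.05 (adjusted p = 0.0356) in MDA-MB-231 and 0.24 ± 0.05 (adjusted p = 0.00146) in HS578T. DAP3, a GTP-binding protein of the small subunit, changed by -0.14 ± 0.05 (adjusted p = 0.0375) in MDA-MB-231 and 0.02 ± 0.05 (adjusted p = 0.773) in HS578T, and ICT1, a peptidyl-tRNA hydrolase of the large subunit, by 0.13 ± 0.08 (adjusted p = 0.188) in MDA-MB-231 and 0.42 ± 0.08 (adjusted p = 0.000428) in HS578T. The difference between the lines did not pass for DAP3 (adjusted p = 0.159) or ICT1 (adjusted p = 0.0957). Of 17 translation factors, 3 rose and 1 fell in MDA-MB-231 and 9 rose and 1 fell in HS578T. The elongation factor TSFM changed by 0.36 ± 0.09 (adjusted p = 0.00297) in MDA-MB-231 and 0.99 ± 0.08 (adjusted p = 8.76e-08) in HS578T, and the elongation factor GFM1 by 0.27 ± 0.05 (adjusted p = 0.000452) in MDA-MB-231 and 0.41 ± 0.04 (adjusted p = 1.21e-06) in HS578T. LRPPRC, which stabilises mitochondrial messenger RNAs, changed by 0.26 ± 0.04 (adjusted p = 2.49e-05) in MDA-MB-231 and 0.59 ± 0.04 (adjusted p = 5.14e-09) in HS578T. These 3 genes rose in both lines. The initiation factor MTIF2 changed by -0.19 ± 0.07 (adjusted p = 0.0317) in MDA-MB-231 and -0.07 ± 0.08 (adjusted p = 0.516) in HS578T, and the release factor MTRF1 by -0.36 ± 0.15 (adjusted p = 0.0653) in MDA-MB-231 and -0.48 ± 0.15 (adjusted p = 0.0145) in HS578T.

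Of 29 assembly and ribosomal RNA modification factors, 8 rose and 2 fell in MDA-MB-231 and 15 rose and 2 fell in HS578T. NOA1, a GTPase needed for mitochondrial translation, changed by -0.86 ± 0.08 (adjusted p = 2.11e-07) in MDA-MB-231 and -1.17 ± 0.08 (adjusted p = 7.32e-09) in HS578T, and the endonuclease YBEY by -0.56 ± 0.13 (adjusted p = 0.00223) in MDA-MB-231 and -0.80 ± 0.12 (adjusted p = 5.47e-05) in HS578T. Both fell in both lines. GRSF1, an RNA granule protein, changed by 0.33 ± 0.04 (adjusted p = 2.85e-06) in MDA-MB-231 and 0.55 ± 0.04 (adjusted p = 1.13e-08) in HS578T. The pseudouridine synthase TRUB2 changed by 0.45 ± 0.07 (adjusted p = 9.25e-05) in MDA-MB-231 and 0.73 ± 0.08 (adjusted p = 1.05e-06) in HS578T, and its partner NGRN by 0.09 ± 0.04 (adjusted p = 0.123) in MDA-MB-231 and 0.47 ± 0.05 (adjusted p = 6.42e-07) in HS578T. MALSU1, an assembly factor that binds MRPL14, changed by 0.36 ± 0.08 (adjusted p = 0.00163) in MDA-MB-231 and 0.60 ± 0.10 (adjusted p = 0.000156) in HS578T. GRSF1, TRUB2 and MALSU1 rose in both lines and NGRN in HS578T. Of 17 mitochondrial aminoacyl-tRNA synthetases, which charge transfer RNAs, 7 rose and 3 fell in MDA-MB-231 and 11 rose and 1 fell in HS578T. FARS2, the phenylalanine enzyme, had the largest fall in either line among the genes of these lists, at -1.59 ± 0.13 (adjusted p = 5.99e-08) in MDA-MB-231 and -1.58 ± 0.15 (adjusted p = 2.81e-07) in HS578T. HARS2 changed by 0.23 ± 0.06 (adjusted p = 0.00971) in MDA-MB-231 and 0.53 ± 0.06 (adjusted p = 2.51e-06) in HS578T, and LARS2 by 0.29 ± 0.06 (adjusted p = 0.0014) in MDA-MB-231 and 0.32 ± 0.08 (adjusted p = 0.00231) in HS578T. Both rose in both lines. MARS2 passed in opposite directions, at -0.30 ± 0.11 (adjusted p = 0.0339) in MDA-MB-231 and 0.46 ± 0.15 (adjusted p = 0.0171) in HS578T. The other synthetases named by the rule, CARS2, EARS2, IARS2 and TARS2, had log2 changes between -0.27 and 0.31.

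Of 13 regulators of mitochondrial biogenesis and transcription, 5 rose and 1 fell in MDA-MB-231 and 6 rose and none fell in HS578T. MYC, a transcription factor that drives ribosome production, changed by 0.12 ± 0.04 (adjusted p = 0.0253) in MDA-MB-231 and 1.13 ± 0.05 (adjusted p = 1.38e-11) in HS578T. TFAM, which packages and transcribes mitochondrial DNA, changed by 0.50 ± 0.04 (adjusted p = 1.38e-07) in MDA-MB-231 and 0.71 ± 0.05 (adjusted p = 1.52e-08) in HS578T, and the mitochondrial RNA polymerase POLRMT by 0.42 ± 0.08 (adjusted p = 0.000306) in MDA-MB-231 and 0.26 ± 0.07 (adjusted p = 0.00923) in HS578T. YY1 changed by 0.35 ± 0.05 (adjusted p = 1.7e-05) in MDA-MB-231 and 0.30 ± 0.05 (adjusted p = 0.000247) in HS578T. All 4 rose in both lines. The nuclear receptor ESRRA changed by -0.54 ± 0.07 (adjusted p = 1.8e-05) in MDA-MB-231 and -0.10 ± 0.08 (adjusted p = 0.336) in HS578T. The median log2 changes of the 5 lists were 0.03 to 0.12 in MDA-MB-231, against -0.01 for the members and 0.00 for all tested genes. In HS578T they were 0.17 to 0.26, against 0.13 for the members and 0.04 for all tested genes.

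Reads could be shared with copies or neighbours of some members. In GENCODE 29, 33 members have at least 1 named pseudogene (70 in all), and 27 overlap an exon of another listed gene, 6 of them on the same strand and 22 on the opposite strand. Whether the counting used strand is not given in the sources used here, so reads of such pairs cannot be told apart. MRPL18 has neither a named pseudogene nor an overlap. MRPL11 overlaps PELI3, MRPS2 overlaps C9orf116 and MRPS27 overlaps PTCD2, each on the opposite strand. MRPS10 and MRPS35 have 2 named pseudogenes each and MRPL15 has 1.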

How the data were processed

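RNA of 8 libraries was prepared as total RNA with a Qiagen RNeasy mini kit, per the labels' protocols. The submitters' processing notes name FastQC, RSEM 1.2.12 and build hg19. The aligner, trimming, strandedness and annotation version were not given in the sources used here. The deposited expected counts are RSEM's estimates of reads per gene, which divide reads that fit several genes among them, and were rounded (94.7 to 94.9% of detected values were whole). The deposited TPM values divide these by effective length. Genes passing filterByExpr (14249) were scaled by TMM and fitted in edgeR 4.0.16 (R 4.3.3) with one mean for each group and 4 residual degrees of freedom and a biological coefficient of variation of 0.0342. Genes were called with the quasi-likelihood test at a Benjamini-Hochberg adjusted p under 0.05. The standard error of a log2 change is its size divided by the root of F. The library totals, 12905808 to 14216365 counts, set the precision. Groups were read from the titles. Alternatives were DESeq2 1.42.0, its size factors in edgeR, no filter, a stricter filter (5 CPM in 2 libraries) and a replicate block. Others were each line alone, each library left out, and limma 3.58.1 on log2(TPM + 1). The pipeline was tested on simulated counts with 50 genes changed at each fold. It recovered 50% of 1.25-fold changes in HS578T and 54% in MDA-MB-231, and 90% and 92% of 1.5-fold changes. Of its calls, 7.22% were false in HS578T and 8.15% in MDA-MB-231. A member that did not pass may thus still have changed by a small amount. Tables and figures used matplotlib 3.10.9, pandas 2.3.3, numpy 2.4.6 and scipy 1.17.1 in Python 3.11.15.

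The members, lists, motifs and tests were chosen with earlier results of these data known. Named members were those called with an absolute log2 change of at least 0.5 (up to 10 per direction), the 3 called with the smallest p per direction, the 5 highest and 5 lowest by TPM, the 3 per subunit with the least change, and the MRPS18 paralogues. Other members are named where they changed in both lines or between lines or belong to the stalk, as are genes overlapping a member, and were picked after values were seen. Of each other list up to 3 called genes per direction and line were named by smallest p. Positions are on GRCh38.p14, not the build of the files, and no hg19 annotation was used.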

Additional observations from a re-analysis of the deposited data

Results flagged for a closer look

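The result marked here is a log2 change after siGpx1 that differed between the lines by the interaction test of edgeR, given as MDA-MB-231 minus HS578T. It concerned 9 members: MRPS10 at -0.45, MRPL11 at 0.47, MRPL47 at -0.42, MRPL19 at -0.33, MRPL21 at -0.45, MRPL3 at -0.27, MRPS30 at -0.36, MRPS9 at -0.36 and MRPL32 at -0.31. The negative calls were 10.5% of the members, against 10.7% of all tested genes. The positive call was 1.32% of the members, against 6.32% of all tested genes. MRPS10 and MRPL11 passed under each alternative run, with adjusted p up to 0.0197 and 0.0109. The other 7 lost the call under 3 to 12 alternatives, with adjusted p up to 0.402 for MRPL32. MRPL47 and MRPL19 reached 0.0834 and 0.144. In MDA-MB-231 the 8 members with a negative difference had log2 changes from -0.12 to 0.14, against 0.20 to 0.50 in HS578T. The part that siGpx1 replicate 2 of HS578T plays in them was not tested beyond leaving it out. The median difference was then -0.061 over the members, against -0.039 over all tested genes.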

How the results depend on the processing

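Of the values recomputed for counts, medians, sums and ratios, 131 stayed within 1.5 times the reported count or within the replicate spread and 43 moved further. With replicate number as a block, members higher and lower were 8 and 16 in MDA-MB-231, 33 and 9 in HS578T, 1 and 8 in the interaction and 40 and 20 in the controls. The numbers do not pair the samples: replicate deviations of siGpx1 and control libraries correlated at 0.0545 in MDA-MB-231 and -0.0348 in HS578T. DESeq2 lowered the count of falls in MDA-MB-231 to 7, of rises in HS578T to 18 and of negative interactions to 2. These were 9.21%, 23.7% and 2.63% of the members, against 13.6%, 20.1% and 3.81% of all tested genes. DESeq2 size factors in edgeR gave 4 positive and 5 negative interactions. The stricter filter gave 14 rises in MDA-MB-231 and 5 positive and 4 negative interactions. These were 18.4%, 6.58% and 5.26% of the members, against 30.6%, 14.1% and 6.68% of all tested genes. Each line fitted alone gave 20 rises in HS578T. Limma on log2(TPM + 1) gave 16 falls in HS578T, 6 positive and 5 negative interactions and 12 members lower between the controls, where it moved the median over all tested genes from 0.05 to 0.17. With 1 library left out, falls in MDA-MB-231 ranged from 7 to 16, rises in HS578T from 18 to 37, positive interactions from 1 to 4 and negative ones from 1 to 16. The large minus small difference of median log2 changes was -0.08 in MDA-MB-231 (-0.114 to -0.040 with 1 library left out) and -0.006 in HS578T (-0.039 to -0.0036), and 0.026 in HS578T by structure. Summed TPM in HS578T, siGpx1 over control, was 0.022 on the log2 scale and 0.092 with CPM. The log2 ratio of large to small in siGpx1 and control MDA-MB-231 and siGpx1 and control HS578T was 0.023, 0.093, 0.17 and 0.38 with medians, and -0.027, 0.048, 0.13 and 0.22 by structure. With mean log2(TPM + 1) it was 0.10, 0.18 and 0.23 in the first 3 of these groups. The cause of these shifts was not tested. With 2 libraries a group, small changes rest on an error estimated from 4 residual degrees of freedom, and leaving out a library assumes that the lone one varies like the other groups. The split by structure was chosen after seeing the data.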
